A study of Mus musculus with 4 samples.

Results

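The cells described here are the T cells of a digest of mouse tibial bone. They were chosen by transcripts of the CD3 complex: a barcode had to hold at least 2 UMIs (unique molecular identifiers, counts of captured RNA molecules) summed over Cd3e, Cd3d and Cd3g. It also had to hold at most 3 UMIs of the B cell genes Cd79a and Cd79b, less than 5% of its UMIs from the neutrophil genes S100a8 and S100a9, and less than 20% from haemoglobin genes. Of 15014 barcodes in the deposited matrix, 11980 reached 1000 UMIs and 200 genes with no more than 15% of UMIs from mitochondrial genes, and are called kept cells. The rule found 208 T cells among them, which is 1.74% (exact 95% interval 1.51% to 1.99%).

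Tibiae of 8-week-old mice, taken at both the proximal and the distal end, were digested and profiled by droplet single-cell RNA sequencing. All 4 sample records belong to 1 group, labelled Wk8_Ctrl_noPTH. Its mice carried Col10a1Cre, the Rosa26-Tdtomato reporter, Irx3 +/Δ and Irx5 +/-, so they were heterozygous controls, and received no parathyroid hormone. Col10a1-Cre acts in hypertrophic chondrocytes of the growth plate and labels their descendants, a lineage apart from blood. All 4 records point to a single matrix whose barcodes carry 1 suffix, so no cell could be assigned to a record, and whether each record is its own animal is not stated. The matrix was treated as 1 library. With no replicate samples there is no test below: cells are not replicates, and each interval is an exact 95% interval that covers counting error only.

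T cells recognise antigen through a receptor made of an alpha and a beta chain, or of a gamma and a delta chain, which signals through the CD3 proteins and the zeta chain. CD4 and CD8 are co-receptors that mark helper and cytotoxic cells among alpha-beta T cells. Bone marrow is known as a site where recirculating and memory T cells lodge, and T cell cytokines are known to act on bone-resorbing and bone-forming cells.

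The 3 CD3 genes that chose the cells lie side by side on chromosome 9 of the mm10 (GRCm38) build. Cd3g occupies chr9:44969572-44980431 on the minus strand, Cd3d chr9:44981786-44987339 on the plus strand, and Cd3e chr9:44998740-45009627 on the minus strand. The starts of Cd3g and Cd3d are 1355 bases apart, and the genes point away from each other. Their promoters are shown because these 3 transcripts define the cells. RefSeq's promoter table for GRCm38.p6, in which 3 of the 3 genes matched, gave 250 bases before and 50 from each start: chr9:44981536-44981835 for Cd3d (plus strand), chr9:44980382-44980681 for Cd3g (minus strand) and chr9:45009562-45009861 for Cd3e (minus strand). Each is written 5′ to 3′ on the gene's strand. Capitals mark matches, on either strand, to 4 short motifs of factor families known from T cell development.
Cd3d: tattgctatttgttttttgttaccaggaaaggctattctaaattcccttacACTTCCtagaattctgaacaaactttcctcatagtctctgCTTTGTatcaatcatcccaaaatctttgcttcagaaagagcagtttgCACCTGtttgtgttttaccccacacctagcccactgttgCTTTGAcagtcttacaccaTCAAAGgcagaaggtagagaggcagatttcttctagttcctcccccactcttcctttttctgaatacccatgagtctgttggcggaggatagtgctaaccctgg
Cd3g: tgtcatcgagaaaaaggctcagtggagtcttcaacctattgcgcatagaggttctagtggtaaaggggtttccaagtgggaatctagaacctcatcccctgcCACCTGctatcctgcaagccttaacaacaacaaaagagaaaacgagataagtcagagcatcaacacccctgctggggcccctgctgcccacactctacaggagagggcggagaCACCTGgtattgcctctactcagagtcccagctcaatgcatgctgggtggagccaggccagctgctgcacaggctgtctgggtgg
Cd3e: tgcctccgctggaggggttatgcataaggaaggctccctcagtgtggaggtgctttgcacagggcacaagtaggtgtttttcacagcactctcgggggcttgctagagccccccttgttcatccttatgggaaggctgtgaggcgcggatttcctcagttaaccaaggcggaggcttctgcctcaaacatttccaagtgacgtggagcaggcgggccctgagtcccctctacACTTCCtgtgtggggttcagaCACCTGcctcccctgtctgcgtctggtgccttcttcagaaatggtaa

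The E-box CAGGTG, bound by E proteins, had 1 match in the Cd3d window, 2 in the Cd3g window and 1 in the Cd3e window. Among all 32851 promoter windows of this length, 20.2% held it. The ETS motif GGAAGT had 1 match in Cd3d, 0 in Cd3g and 1 in Cd3e, and stood in 23.8% of all windows. The TCF/LEF motif, CTTTGT or CTTTGA, had 3 matches in Cd3d, 0 in Cd3g and 0 in Cd3e, and stood in 31.2% of all windows. The RUNX motif TGTGGT had 0 matches in the 3 windows and stood in 16.8% of all windows. No matches overlapped, and a match describes letters only.

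The chosen cells held between 2 and 26 CD3 UMIs, with a median of 6. Cd3d was read in 191 of 208 T cells, Cd3g in 177 and Cd3e in 156; these counts follow from the rule. In neutrophils, Cd3d had a UMI in 177 of 3172 cells (5.58%), Cd3g in 12 and Cd3e in 12, so the 3 genes were unevenly read there. The median depth was 4099.5 UMIs in T cells and 5647.5 UMIs in neutrophils, and the neutrophil shares given below serve as a reference only. The doublet caller Scrublet marked 326 of these neutrophils, which were left in. How far free RNA, doublets or the neutrophils' own transcripts make up these shares was not tested. Just inside the limit stood 15 T cells with 2 CD3 UMIs, of which 6 held Trac, the alpha-chain constant gene, and 11 held Trbc2, a beta-chain constant gene. Just outside stood 23 cells with 1 CD3 UMI that met the other limits, of which 3 held Trac and 8 held Trbc2. A further 65 kept cells with enough CD3 UMIs were removed: 30 failed the limit on Cd79a and Cd79b, 26 that on S100a8 and S100a9 and 11 that on haemoglobin, with 2 failing more than 1. The 26 cells are counted among the neutrophils.

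T cells had between 1099 and 27961 UMIs each, a median of 1587 genes and 969785 UMIs in all, and the doublet caller Scrublet marked 5 of them. Their median mitochondrial share was 6.77%, against 5.57% over all kept cells. Markers of other cell types were read in T cells, and their part in the results below was not tested. The 9 B lineage markers summed to 0 to 19 UMIs per T cell (median 1), the 9 neutrophil markers to 0 to 75 (median 5) and the 8 erythroid markers to 0 to 129 (median 8). The 5 monocyte or macrophage markers summed to 0 to 225 and the 5 dendritic markers to 0 to 492, both with a median of 0, and the dendritic markers Siglech and Flt3 were at 0 in every T cell. In 4 T cells, macrophage or dendritic markers reached 10 UMIs: 2 held Cd8a, 2 held neither co-receptor, and Scrublet marked 0 of them.

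Most T cells carried transcripts of the alpha or beta chain, and a smaller set carried those of the delta chain. Levels are given as CPM, the UMIs of a gene per 1000000 UMIs summed over the cells of a class. Trac (chr14:54220521-54224206) was read in 107 of 208 T cells (51.4%) with 236 UMIs, at 243 CPM (213 to 276), against 1 of 86 natural killer cells and 9 of 3172 neutrophils (0.284%). With every cell thinned to 1000 UMIs, which left out no T cell, 20.2% of T cells and 0.0315% of neutrophils held Trac. Beta-chain transcripts were more widespread: Trbc1 (chr6:41538218-41539881) was read in 118 T cells, Trbc2 (chr6:41546730-41548352) in 185, and either in 200. These beta genes are near copies, so the split of reads between them is uncertain. Natural killer cells held either beta gene in 67 of 86 cells, so a beta transcript by itself did not separate the classes.

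Trdc, the delta-chain constant gene (chr14:54142851-54148868), lies within the alpha locus, and joining of an alpha chain is known to delete it from that chromosome. It was read in 36 T cells (17.3%) with 177 UMIs, up to 18 in a cell, against 3 of 3172 neutrophils (0.0946%). Of these cells, 34 held 2 or more Trdc UMIs. No T cell held both Trac and Trdc: 107 held Trac alone, 36 Trdc alone and 65 neither. Gamma-chain constant genes, which are near copies of each other, were read in 51 T cells, among them 26 of the 36 with Trdc. Natural killer cells held Trdc in 29 of 86 cells, with at most 4 UMIs in a cell. T cells stood at 183 CPM of Trdc and natural killer cells at 87.9 CPM (2.08-fold, 1.48 to 2.97).

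**Figure D1:**
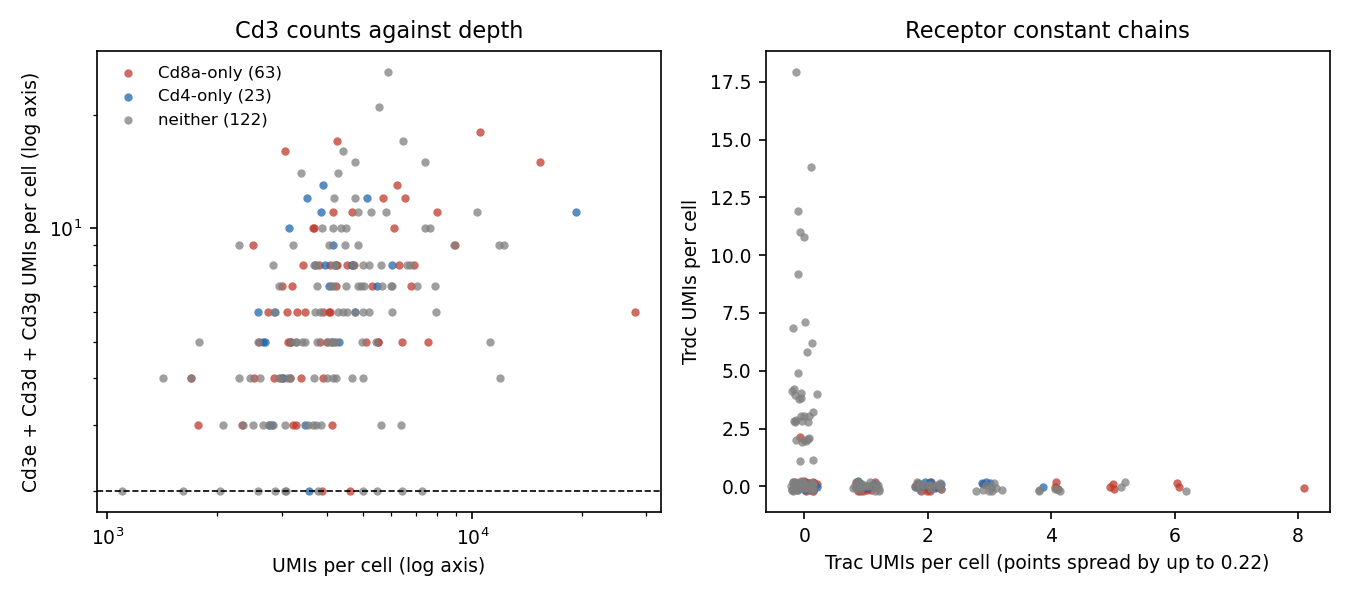
The left panel plots the summed Cd3e, Cd3d and Cd3g UMIs of each of the 208 T cells against its UMIs, with the lower limit of 2 as a dashed line, coloured by co-receptor class (63 Cd8a-only, 23 Cd4-only and 122 with neither). The right panel plots Trac against Trdc UMIs per cell, and no cell has both above 0.

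Variable segments, which differ between T cell clones, were rarely read. Of 170 variable genes of the T cell receptor loci in the matrix, 22 had a UMI in T cells, and 41 UMIs fell in 31 cells (14.9%). Alpha segments were read in 15 T cells, beta segments in 13, gamma segments in 4 and delta segments in 0. Trgv2 was read in 4 T cells, of which 2 held Trdc, and Trbv26 in 3. Clones could not be told apart at this depth.

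Set against all other kept cells, T cells stood out by the receptor and its signalling cascade. Of 13772 genes with at least 20 UMIs over both sides, 2323 were at least 2-fold higher in T cells (16.9%) and 2508 at least 2-fold lower (18.2%); genes of the rule were left out, and "higher" and "lower" below mean past this fold. The whole counting interval lay past 2-fold for 913 higher genes (6.63%) and 833 lower genes (6.05%). The split depends on the scaling: with the 50 most abundant genes left out of the totals, higher genes made up 36.6% of those past the fold in place of 48.1%, and the median log2 ratio of all genes was -0.14 in place of 0.12. All 8 receptor chain genes compared were higher, with a median log2 ratio of 6.68. Themis, an adaptor known from thymocyte selection, had the highest log2 ratio among genes read in at least 10% of T cells, at 87.6 CPM in T cells against 0.231 CPM in other cells (379-fold, 229 to 660.4). Next came Bcl11b, a transcription factor that commits cells to the T lineage, at 178 CPM in T cells against 0.694 CPM in other cells (257-fold, 189.7 to 353), and Trac (247-fold, 191 to 322).

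Of 23 receptor signalling genes, 19 were higher and 0 lower in T cells, with a median log2 ratio of 4.31 against 0.12 over all genes. Lck, the kinase that starts the signal, was read in 120 T cells, at 227 CPM against 6.91 CPM in other cells (32.8-fold, 28.0 to 38.4). Zap70, the kinase that acts after it, was at 98.0 CPM in T cells and 2.83 CPM in other cells (34.6-fold, 26.9 to 44.0). Ptpn22, a phosphatase that restrains the signal, was higher as well (29.3-fold, 26.8 to 31.9). The 4 genes that did not pass the fold were Vav1, Bcl10, Csk and Ptpn6, with Ptpn6 at 65.0 CPM in T cells and 123 CPM in other cells.

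Of 21 co-receptors and costimulators compared, 18 were higher and 0 lower (median 5.39). Thy1, a surface protein used to mark mouse T cells, was read in 141 T cells at 403 CPM, against 3.42 CPM in other cells (118-fold, 101 to 138). Cd28, the main costimulator, was read in 131 T cells (62.6-fold, 54.2 to 72.3), and its inducible relative Icos in 101 (78.6-fold, 67.4 to 91.8). Havcr2, Btla and Slamf6 did not pass the fold. All 8 genes of the GIMAP family, GTPases tied to lymphocyte survival, were higher (median 4.57). Gimap3 was read in 180 of 208 T cells at 687 CPM, against 9.67 CPM in other cells (71.0-fold, 64.0 to 78.8).

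**Figure D2:**
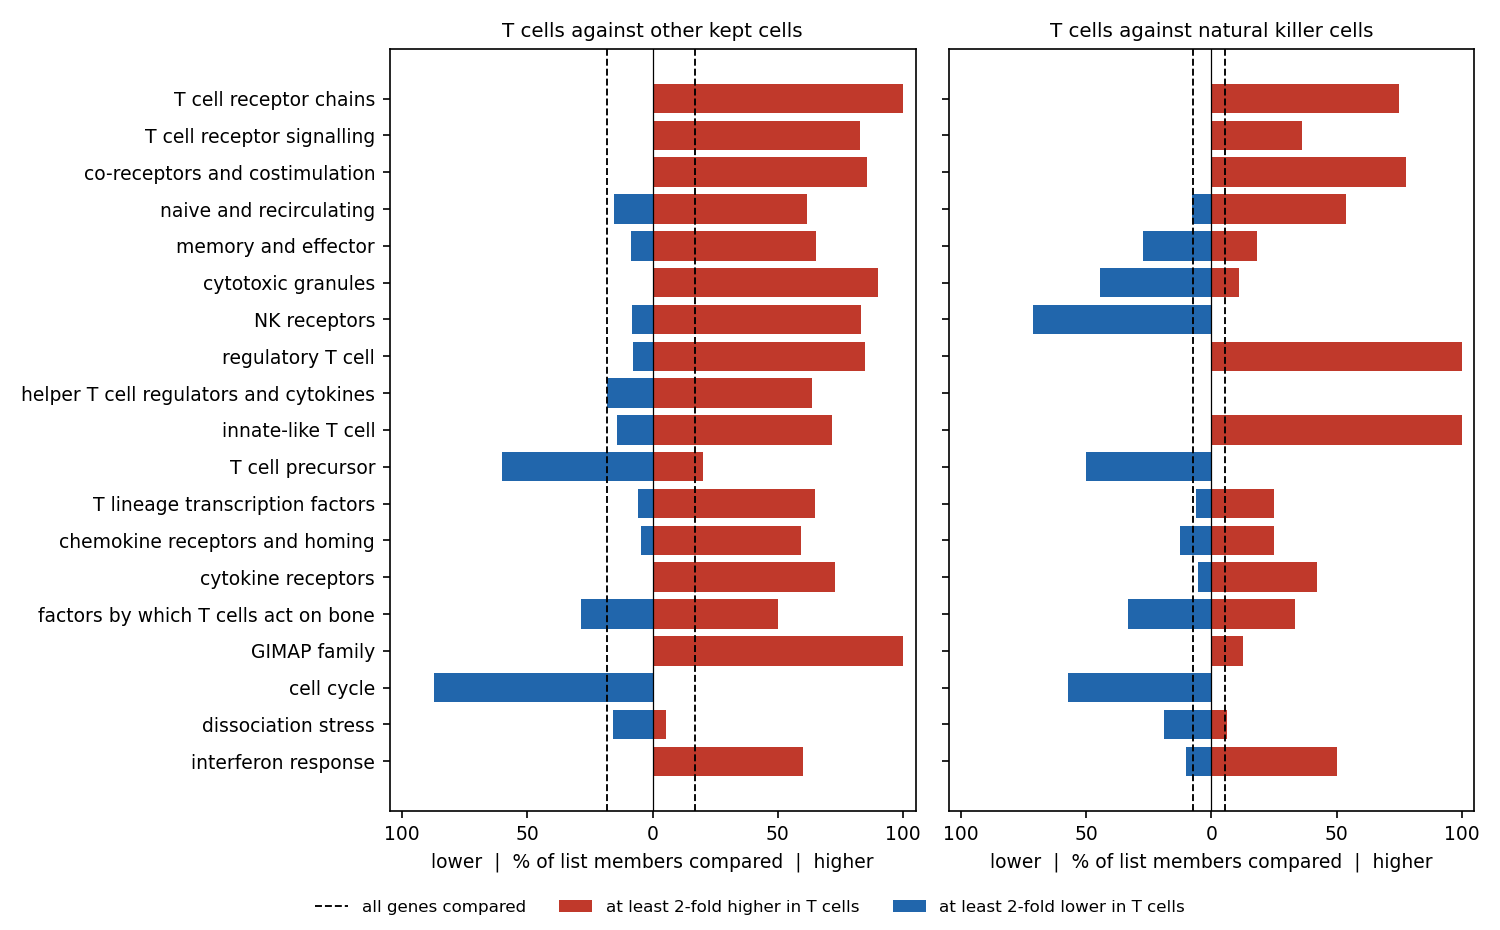
For each gene list, bars give the percentage of the members compared that were at least 2-fold higher or lower in T cells than in all other kept cells (left panel) or than in natural killer cells (right panel). Dashed lines give the same over all genes compared, 16.9% and 18.2% on the left and 5.38% and 7.25% on the right.

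Of 17 transcription factors of the lineage, 11 were higher in T cells and 1, Id3, was lower (median 2.01). The whole interval lay past 2-fold for 10 of the higher genes, but not for Id3. Tcf7, a factor of naive and memory T cells, was at 210.4 CPM in T cells against 2.52 CPM in other cells (83.5-fold, 68.5 to 102). Its relative Lef1 was at 327 CPM in T cells and 45.6 CPM in other cells (7.17-fold, 6.37 to 8.04). Ets1 was read in 196 T cells (4.02-fold, 3.77 to 4.29), so the list held broadly read members beside sparse ones.

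T cells held transcripts of recirculation and of memory or effector states. Of 13 naive and recirculation genes, 8 were higher and 2 lower (median 1.57). Ccr7, a homing receptor for lymph nodes, was read in 73 T cells (35.1%), against 4.35% of neutrophils, and was higher than in other kept cells (5.15-fold, 4.55 to 5.81). S1pr1, by which T cells leave tissues, was read in 113 T cells (5.48-fold, 4.85 to 6.18). The lower genes were Bach2 (3.31-fold lower, 2.68 to 4.14) and Igfbp4 (2.62-fold lower, 1.75 to 4.14). At a limit of 5% mitochondrial UMIs, which left 17 T cells, Bach2 had a log2 ratio of 0.86 (interval -0.44 to 1.76). The median log2 ratio of all genes was then 1.11 in place of 0.12, so Bach2 stayed below the median gene.

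Of 23 memory and effector genes, 15 were higher and 2, S100a6 and Zeb2, were lower (median 1.97). Ccl5, a chemokine made by memory and cytotoxic cells, held 2906 UMIs in 131 T cells, up to 102 in a cell. It stood at 2997 CPM in T cells against 61.4 CPM in other cells (48.8-fold, 46.6 to 51.1), and 1.32% of neutrophils held a UMI. Its level was uneven, with 87 T cells at 10 UMIs or more. Il2rb, a receptor chain for interleukins 2 and 15, was read in 167 T cells (52.0-fold, 47.4 to 57.0), and Cxcr6, a receptor of tissue-lodged memory cells, in 40 (59.3-fold, 46.9 to 74.9). Cd44, an adhesion receptor of activated cells, was at 207 CPM in T cells and 242 CPM in other cells, short of the fold.

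Counted cell by cell, Ccl5 shared 30 cells with Cxcr6, which was read in 40. Over all 208 T cells, Ccl5 was read in 131 (63.0%), S1pr1 in 113 (54.3%) and Ccr7 in 73 (35.1%). Ccr7 and S1pr1 shared 61 of the 73 cells with Ccr7 and the 113 with S1pr1. Ccr7 and Cxcr6 shared 3 cells, so these transcripts were mostly read in separate cells. A cell without a UMI may hold the transcript undetected.

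Of 10 cytotoxic granule genes, 9 were higher in T cells and 0 lower (median 2.83). Nkg7, a granule membrane protein, was read in 128 T cells at 507 CPM, against 91.8 CPM in other cells (5.52-fold, 5.03 to 6.05). Granzymes were read in fewer cells: Gzma held 184 UMIs in 17 T cells, up to 50 in a cell, and Gzmb 49 UMIs in 22. Of 12 natural killer receptor genes, 10 were higher and 1, Tyrobp, which myeloid cells also make, was lower (median 4.15).

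The homing list had 13 of 22 members higher and 1, Ccr6, lower (median 1.71). The whole interval lay past 2-fold for 12 of the higher genes, but not for Ccr6. Cxcr4, the receptor for the marrow chemokine Cxcl12, was read in 161 T cells (77.4%) and 64.8% of neutrophils, and did not pass the fold (1.55-fold, 1.43 to 1.69). Of 22 cytokine receptors, 16 were higher and 0 lower (median 2.00). Il7r, the survival receptor of resting T cells, was read in 126 T cells (2.97-fold, 2.70 to 3.27), and Ifngr1, a chain of the interferon gamma receptor, in 189 (7.02-fold, 6.58 to 7.47).

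Factors by which T cells are known to act on bone were mostly rare. Of 14 compared, 7 were higher and 4 lower, with a median log2 ratio of 1.48. The whole interval lay past 2-fold for 3 of the higher genes and 0 of the lower genes. With the 2 genes at 0 on a side set to 3 counts, the median was 1.90. In T cells 3 counts equal 3.09 CPM, which raises the ratio of a gene with 0 UMIs there. Tnfsf11, the osteoclast inducer RANKL, had 6 UMIs in 6 of 208 T cells, at 6.19 CPM (2.27 to 13.5) against 1.31 CPM in other cells (4.71-fold, 1.69 to 10.6). Ifng, known to inhibit osteoclast formation, had 23 UMIs in 15 T cells (23.7 CPM), against 0.511 CPM in other cells. Tnf had 1 UMI in T cells and Pth1r, the parathyroid hormone receptor, 1. Il17a, Il4 and Il6 each had 0 UMIs in T cells, which allows up to 3.09 CPM. Ltb, a cytokine of lymphoid tissue, was the most widely read of those higher, in 111 T cells (6.04-fold, 5.30 to 6.87), and Tgfb1 was at 181 CPM in T cells and 177 CPM in other cells.

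Precursor and cell cycle genes were low in T cells. Of 10 thymic precursor genes, 6 were lower and 2, Ptcra and Tox, were higher (median -3.19). Rag1, a recombinase of developing lymphocytes, had 4 UMIs in T cells (4.12 CPM), against 95.4 CPM in other cells (23.1-fold lower, 9.03 to 84.9), and Ptcra had 1 UMI in T cells. Of 16 cell cycle genes, 0 were higher and 14 lower (median -2.11). Mki67, a proliferation marker, was at 99.0 CPM in T cells and 569 CPM in other cells (5.75-fold lower, 4.71 to 7.10). Mki67 and Top2a were read together in 10 of 208 T cells, 4 Cd8a-only, 1 Cd4-only and 5 with neither.

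Of 19 genes that respond to tissue dissociation, 1, Junb, was higher and 3, Ier3, Atf3 and Zfp36, were lower (median 0.01). The whole interval lay past 2-fold for Junb and for 1 of the lower genes. Junb was at 1311 CPM in T cells and 371 CPM in other cells (3.53-fold, 3.33 to 3.73), while Fos was at 129 CPM in T cells and 182 CPM in other cells. Of 15 interferon response genes, 9 were higher and 0 lower (median 1.21). Igtp, an interferon-induced GTPase, was at 63.9 CPM in T cells and 5.51 CPM in other cells (11.6-fold, 8.75 to 15.2).

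Outside the lists, the highest genes included Camk4, a calcium-dependent kinase, at 98.0 CPM in T cells and 0.462 CPM in other cells (212-fold, 144 to 317), and Tdrp (182-fold, 113 to 299). The lowest were genes of other marrow lineages. Cebpe, a granulocyte transcription factor, had 0 UMIs in T cells and was at least 32.3-fold lower, against a floor of 3 counts over the class. Here and below, such a bound sets the 0 to 3 counts and leaves out counting error on the other side. The exact interval reaches nearer to 1. Pax5, the B cell commitment factor, had 1 UMI in T cells, against 198 CPM in other cells.

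By co-receptor transcript, 63 T cells held Cd8a without Cd4 (30.3%, 24.1% to 37.0%), 23 held Cd4 without Cd8a (11.1%, 7.14% to 16.1%), 0 held both and 122 held neither (58.7%). Cd8a had 126 UMIs, at most 10 in a cell, and Cd4 had 28, at most 3 in a cell. In neutrophils, Cd8a had a UMI in 0.0631% of cells and Cd4 in 0.252%. Thinned to 500, 1000 and 2000 UMIs per cell, 6.73%, 11.5% and 20.9% of T cells held Cd8a. Cd4 was held by 1.92%, 3.85% and 6.97%, so these shares depend on the depth chosen. Cells without either UMI are not shown to lack the co-receptors: of the 122, 16 held Cd8b1, which encodes the other CD8 chain. Of the same 122, 35 held Trdc and 31 held 2 or more UMIs over 4 natural killer genes, sets that overlap, and 55 had none of these features. Requiring 2 UMIs left 16.3% Cd8a-only and 1.92% Cd4-only, and counting Cd8b1 beside Cd8a gave 38.0% for the first class.

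Between Cd8a-only and Cd4-only T cells, natural killer receptor genes were higher in Cd8a-only cells and most regulatory genes compared were lower. Of 3052 genes compared, 214 were at least 2-fold higher in Cd8a-only cells (7.01%) and 265 at least 2-fold lower (8.68%). The whole counting interval lay past 2-fold for 17 higher genes (0.557%) and 33 lower genes (1.08%), and the median log2 ratio of all genes was -0.12. The Cd8a-only class held 309176 UMIs at a median of 4048 per cell, and the Cd4-only class 102649 at a median of 3858. All 4 receptor chain genes and all 8 GIMAP genes compared stayed within the fold; the other receptor chain genes had too few UMIs.

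Cd8b1 had 91 UMIs in 39 of 63 Cd8a-only cells and 0 in Cd4-only cells, at least 10.1-fold higher. It neighbours Cd8a on chromosome 6, with Cd8b1 at chr6:71322788-71337494 and Cd8a at chr6:71373427-71379173. Ccl5 was at 3373 CPM in Cd8a-only cells (40 of 63 cells), 399 CPM in Cd4-only cells (9 of 23) and 3265 CPM in cells with neither (8.45-fold, 6.18 to 11.8 for Cd8a-only over Cd4-only cells). It reached 10 UMIs in 28 Cd8a-only cells and 0 Cd4-only cells. Ccl4, another chemokine of cytotoxic cells, had 38 UMIs in 11 Cd8a-only cells and 0 in Cd4-only cells, at least 4.21-fold higher.

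All 6 natural killer receptor genes compared were higher in Cd8a-only cells (median log2 ratio 2.31, or 1.95 with zeros at 3 counts), 3 of them with the whole interval past 2-fold. The list includes the adaptors Tyrobp and Fcer1g, which myeloid cells also make. Fcer1g was read in 8 of 63 Cd8a-only and 3 of 23 Cd4-only cells, and Tyrobp in 13 and 3. The 7 natural killer markers, these adaptors among them, had 181 UMIs in Cd8a-only cells, with up to 69 in a cell. Klrd1, which encodes CD94, had 101 UMIs in 38 Cd8a-only cells and 4 UMIs in 3 Cd4-only cells (8.38-fold, 3.17 to 31.4). Klre1, a receptor of the same kind, had 41 UMIs in 17 Cd8a-only cells and 0 in Cd4-only cells, at least 4.54-fold higher. Of 7 cytotoxic granule genes, 4 were higher and 0 lower (median 1.13), and 1, Gzma, had its whole interval past the fold. Gzma was read in only 5 of 63 Cd8a-only and 1 of 23 Cd4-only cells, so its interval rests on few cells. Eomes, a factor of cytotoxic memory cells, had 29 UMIs in 15 Cd8a-only cells and 0 in Cd4-only cells, at least 3.21-fold higher. Bend4 had 47 UMIs in 25 Cd8a-only cells and 0 in Cd4-only cells, at least 5.20-fold higher.

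Of 11 naive and recirculation genes, 2 were higher in Cd8a-only cells and 0 lower (median 0.66), with the whole interval past the fold for 0. Lef1 was at 398 CPM in Cd8a-only and 166 CPM in Cd4-only cells (2.40-fold, 1.44 to 4.26). Ccr7 (1.61-fold, 1.01 to 2.68) and S1pr1 (1.24-fold, 0.830 to 1.91) did not pass the fold.

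Most regulatory genes compared, and 2 of 4 helper genes, Gata3 and Maf, were lower in Cd8a-only cells. Of 6 regulatory genes compared, 0 were higher and 5 lower (median -2.59), and of 14 costimulation genes 1 was higher and 8 were lower (median -1.05). The whole interval lay past the fold for 4 of the lower regulatory genes, 4 of the lower costimulation genes and both helper genes. Ctla4, Tnfrsf4 and Tnfrsf18 belong to both the regulatory and the costimulation list, so these tallies are not independent. Tnfrsf4, which encodes OX40, had 0 UMIs in Cd8a-only cells and 40 in 12 of 23 Cd4-only cells, at least 40.2-fold lower. Ctla4, an inhibitory receptor, had 12 UMIs in 6 Cd8a-only cells and 41 in 12 Cd4-only cells (10.3-fold lower, 5.31 to 21.5). Icos was at 165 CPM in Cd8a-only and 653 CPM in Cd4-only cells (3.96-fold lower, 2.71 to 5.81). Activated helper cells are known to make these receptors as well.

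Gata3, the factor of type 2 helper cells, had 8 UMIs in 7 Cd8a-only cells and 40 in 13 Cd4-only cells, of which 1 held 21 (15.1-fold lower, 6.95 to 37.2). Maf, a regulator of helper cytokines, was at 29.1 CPM in Cd8a-only and 448 CPM in Cd4-only cells (15.4-fold lower, 7.45 to 35.8). Il1rl1, the receptor for interleukin 33, had 0 UMIs in Cd8a-only cells and 26 in 4 Cd4-only cells, of which 1 held 11, at least 26.1-fold lower. Ikzf2, a factor of regulatory cells, was lower in Cd8a-only cells (3.64-fold lower, 2.49 to 5.34). Its log2 ratio was 0.66 (interval -0.84 to 3.22) when a class needed 2 UMIs, which left 4 Cd4-only cells. Ikzf2 was read in 18 of 63 Cd8a-only, 9 of 23 Cd4-only and 65 of 122 cells with neither co-receptor. It was also read in 25 of the 36 T cells with Trdc, of which 0 held Foxp3, so it did not mark regulatory cells alone.

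**Figure D3:**
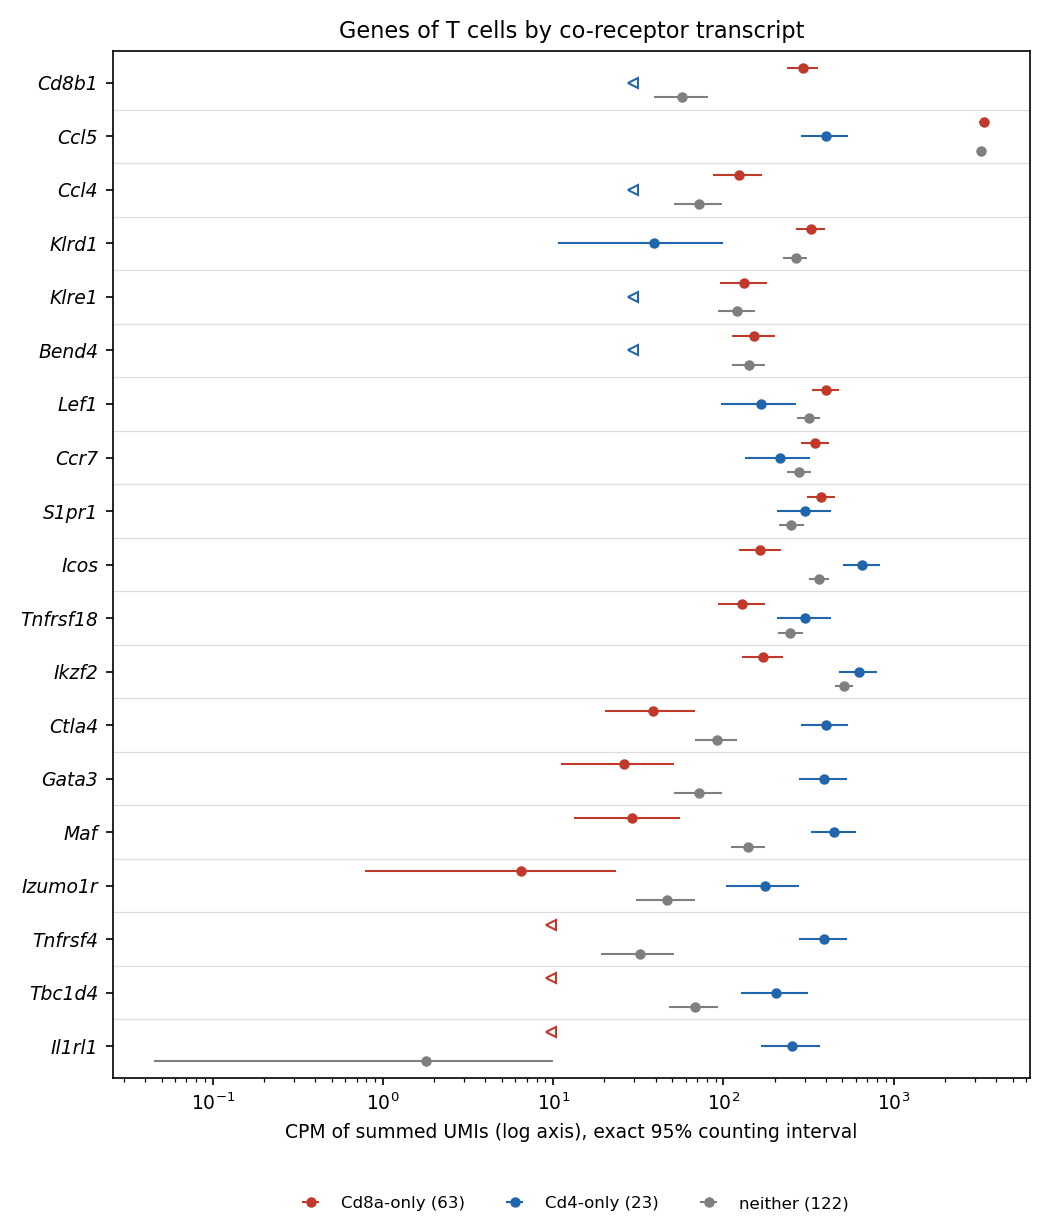
CPM of 19 genes (log axis) in Cd8a-only (63), Cd4-only (23) and T cells with neither transcript (122), with exact 95% counting intervals; open triangles mark 0 UMIs, drawn at the level of 3 counts. Ccl5, at 3373 CPM in Cd8a-only cells, is lowest in Cd4-only cells at 399 CPM, while Ctla4 is highest there at 399 CPM.

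Some high values of both classes rested on single cells. The deepest Cd8a-only cell, with 27961 UMIs, held 9.04% of the class's UMIs. Clec12a, a myeloid lectin, had 50 UMIs in Cd8a-only cells, with 50 in 1 cell, and Lpl had 32, with 31 in 1 cell. S100a4 had 168 UMIs, with 137 in 1 cell: its log2 ratio was 0.40 with all cells and -1.89 without the deepest cell. Ccl5 had a log2 ratio of 3.20 without that cell, against 3.06 with it. The deepest Cd4-only cell, with 19214 UMIs, held 18.7% of its class's UMIs. Without it, a choice made after seeing the data, 236 and 289 genes were at least 2-fold higher and lower in Cd8a-only cells. Its removal left Il1rl1 with fewer than 20 UMIs, so that gene was no longer compared. The log2 ratio of Gata3 was then -3.09 in place of -3.84, that of Ctla4 -3.62 in place of -3.32 and that of Ccl5 2.76.

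Against other kept cells, of 13 regulatory genes compared, 11 were higher and 1 lower in T cells (median 5.11). Of 11 helper regulators and cytokines, 7 were higher and 2 lower (median 2.44), and of 7 innate-like genes, 5 were higher and 1 lower (median 6.49). The whole interval lay past 2-fold for 10 higher and 0 lower regulatory genes, 6 and 0 helper genes, and 5 and 1 innate-like genes. The innate-like list includes the gamma constant genes Tcrg-C1, Tcrg-C2 and Tcrg-C4, which are also counted among the receptor chain genes. Foxp3, the lineage factor of regulatory T cells (chrX:7573644-7595245), was read in 10 of 208 T cells (4.81%), against 0.0315% of neutrophils. Of these cells, 0 were Cd8a-only, 4 Cd4-only and 6 had neither co-receptor. Ctla4 was read in 10 of the 10, and Il2ra, a chain of the interleukin 2 receptor, in 8. Ikzf2 was read in 8 of them, S1pr1 in 8 and Trac in 4. Among all 208 T cells, Ctla4 was read in 39, Il2ra in 15, Ikzf2 in 92, S1pr1 in 113 and Trac in 107. Il1rl1 was read in 3 of the cells with Foxp3 and in 5 T cells in all. Il13, a type 2 cytokine, had 7 UMIs in 1 T cell. Zbtb16, the factor of innate-like T cells, was read in 17 T cells, 10 of them with a gamma constant gene and 2 with Trdc.

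The 36 T cells with Trdc were set beside the 107 with Trac. These classes were drawn after their values had been seen, so the contrast is a description. Median depths were 4813 UMIs in cells with Trdc and 4068 UMIs in cells with Trac. Tcrg-C1 was read in 16 of 36 cells with Trdc and 4 of 107 with Trac (10.5-fold, 4.17 to 31.3). Over all gamma constant genes, 51 T cells held a UMI, 26 of them with Trdc and 17 with Trac. Beta transcripts were read in both, Trbc2 in 30 of 36 cells with Trdc and 96 of 107 with Trac. Cd8a was read in 1 cell with Trdc, and Cd4 and Foxp3 in 0 such cells.

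Of 4704 genes compared, 211 were at least 2-fold higher in cells with Trdc (4.49%) and 267 at least 2-fold lower (5.68%), with a median log2 ratio of 0.02. Of 8 natural killer receptor genes, 4 were higher and 0 lower (median 1.18), and of 8 granule genes, 2 were higher and 0 lower (median 0.61). Among the granule genes, Nkg7 passed the fold (2.19-fold, 1.78 to 2.70), while Gzmb (0.733-fold, 0.268 to 1.74), Prf1 (1.47-fold, 0.573 to 3.54) and Fasl, the ligand of a death receptor (0.872-fold, 0.498 to 1.47), did not. Ccl5, short of the fold, was read in 35 of 36 cells with Trdc and 61 of 107 with Trac (1.82-fold, 1.67 to 1.98). Klrc1, a lectin receptor that pairs with CD94, was read in 22 cells with Trdc and 16 with Trac, at 461 CPM and 103 CPM (4.49-fold, 3.17 to 6.43). Eomes was read in 17 cells with Trdc and 19 with Trac (2.62-fold, 1.60 to 4.27). Fcer1g, a signalling adaptor of natural killer and myeloid cells, was read in 22 cells with Trdc and 18 with Trac, and Ncr1, a natural killer receptor, in 7 and 2. Thinned to 1000 UMIs per cell, Ccl5 was read in 32 cells with Trdc and 54 with Trac, and Klrc1 in 13 and 6. Il2rb stood at 1247 CPM in cells with Trdc and 601 CPM in cells with Trac (2.08-fold, 1.75 to 2.46).

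In cells with Trdc, of 12 naive and recirculation genes, 0 were higher and 3 lower (median -0.34). Of 17 costimulation genes, 0 were higher and 8 lower (median -0.44), and of 15 homing genes, 1 was higher and 4 were lower (median 0.20). Ccr7 and S1pr1 are among the lower genes of both the recirculation and the homing list. Ccr7 was read in 5 of 36 cells with Trdc and 46 of 107 with Trac (10.8-fold lower, 5.12 to 27.1). Cxcr6 was read in 3 cells with Trdc and 22 with Trac (6.78-fold lower, 2.54 to 25.6), and Cd5, an inhibitory receptor set during selection, in 4 and 34 (5.92-fold lower, 2.20 to 22.4). Themis was read in 3 cells with Trdc and 37 with Trac (5.73-fold lower, 2.13 to 21.7). Lef1, read in 20 of 36 cells with Trdc and 65 of 107 with Trac (0.793-fold, 0.571 to 1.08), was not lower by the fold.

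Macrophage and dendritic transcripts in single cells touched this contrast. H2-Aa, a class II antigen-presentation gene, had 152 UMIs in cells with Trdc, of which 1 cell held 150, and 11 in cells with Trac. Without the 4 cells rich in such markers, these were 2 and 10 UMIs, while Klrc1 (4.42-fold, 3.11 to 6.34) was near its value with all cells. The 65 T cells with neither Trac nor Trdc held Trbc2 in 59 and Cd8a in 21 cells, at a median depth of 3754 UMIs.

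**Figure D4:**
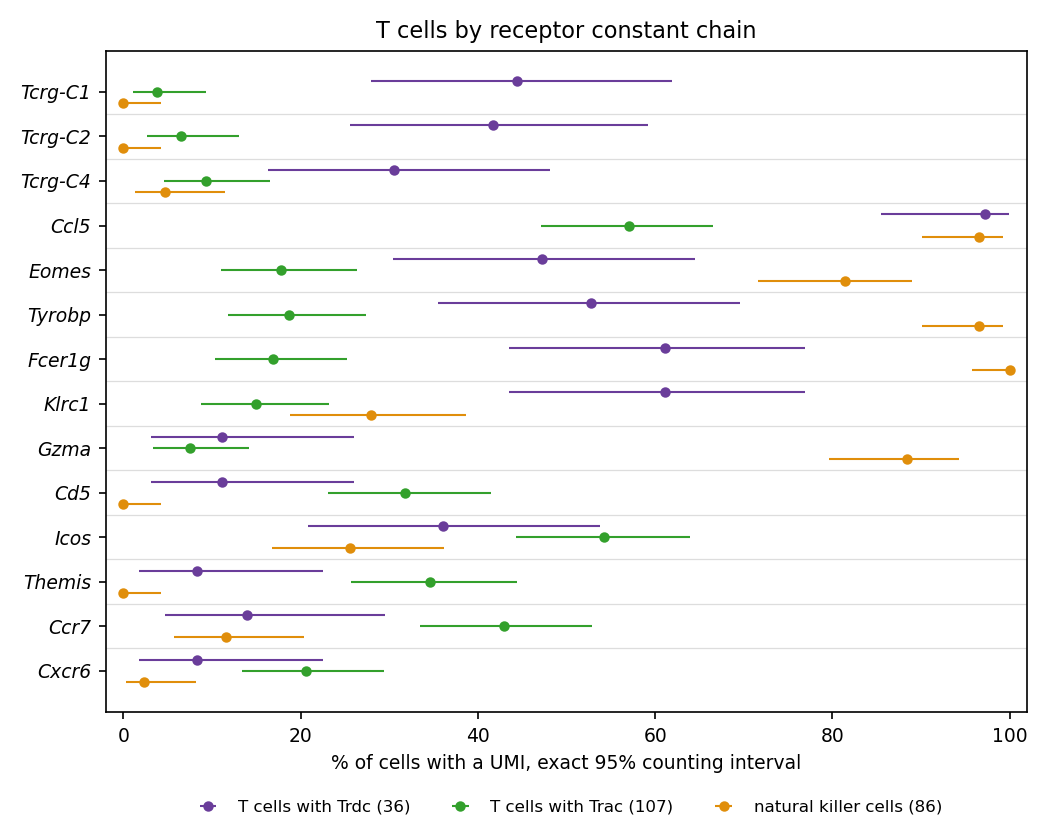
Share of cells with at least 1 UMI of each gene, with exact 95% counting intervals, in T cells with Trdc (36), T cells with Trac (107) and natural killer cells (86), not adjusted for depth. Klrc1 was read in 22 of 36 cells with Trdc, 16 of 107 with Trac and 24 of 86 natural killer cells, and Ccr7 in 5, 46 and 10.

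Natural killer cells, kept cells with at least 2 UMIs over Ncr1, Klrb1c, Klre1 and Klra8 and no CD3 UMI, numbered 86 at a median depth of 3932.5 UMIs. Of 6967 genes compared, 375 were at least 2-fold higher in T cells (5.38%) and 505 at least 2-fold lower (7.25%). The whole interval lay past 2-fold for 97 higher genes (1.39%) and 116 lower genes (1.66%), with a median log2 ratio of -0.13 over all genes. Of 8 receptor chain genes, 6 were higher in T cells, with Cd247, the zeta chain, and Trbc1 short of the fold (median 2.11). Bcl11b had 173 UMIs in 91 T cells and 0 in natural killer cells, at least 29.1-fold higher. Themis and Cd5, each with 0 UMIs in natural killer cells, were at least 14.3-fold and 14.6-fold higher in T cells.

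Most costimulation genes and the larger part of the recirculation genes were also higher in T cells. Of 18 costimulation genes, 14 were higher and 0 lower (median 2.02), and of 13 naive and recirculation genes 7 were higher and 1 lower (median 1.28). Il7r was at 458 CPM in T cells and 36.8 CPM in natural killer cells (12.4-fold, 7.78 to 21.2). Icos (6.02-fold, 4.06 to 9.28) and Ltb (5.15-fold, 3.41 to 8.10) passed the fold as well. Ramp3, a receptor-modifying protein, had 207 UMIs in 71 T cells and 1 in natural killer cells (104-fold, 18.5 to 4146).

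Several cytotoxic genes were lower in T cells than in natural killer cells. Of 9 granule genes, 1, Gzmk, was higher and 4 were lower (median -0.71), and of 7 natural killer receptor genes outside the rule 0 were higher and 5 lower (median -1.31). Gzma was at 189.7 CPM in T cells (17 of 208 cells) and 3349 CPM in natural killer cells (17.7-fold lower, 15.1 to 20.7), where 76 of 86 cells held it. Prf1, which encodes the pore protein perforin, was lower as well (12.1-fold lower, 8.36 to 17.9), and so was Klra4, one of a family of near copies (43.7-fold lower, 26.1 to 79.0). Ccl5 was at 2997 CPM in T cells and 5774 CPM in natural killer cells (1.93-fold lower, 1.83 to 2.03), and Klrc1 at 177 CPM in T cells and 141 CPM in natural killer cells, both short of the fold.

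Signalling genes were partly at like levels. Of 22 compared, 8 were higher in T cells and 0 lower (median 0.53). Txk, a kinase of the cascade, was at 496 CPM in T cells and 437 CPM in natural killer cells (1.13-fold, 0.964 to 1.34). Of 8 GIMAP genes, 1, Gimap3, was higher (median 0.33). Some genes lower in T cells rested on few natural killer cells: Siglech had 32 UMIs in 2 of them, and Mpo 205 UMIs in 10, with 182 in 1 cell. With the CD3 limit at 1 UMI, the log2 ratio of Mpo was 0.23 in place of -4.54.

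**Figure D5:**
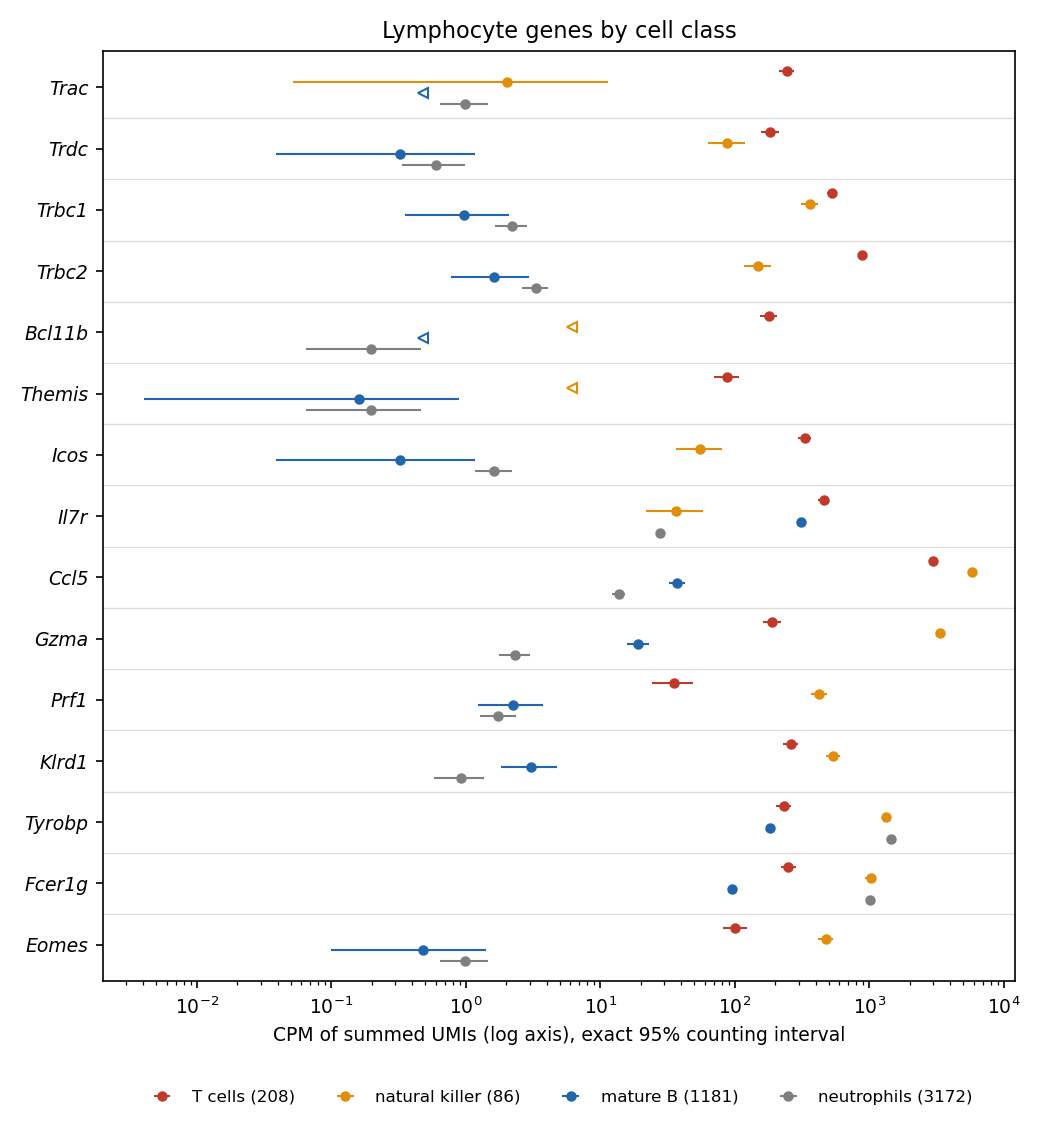
CPM of 15 genes (log axis) in T cells (208), natural killer cells (86), mature B cells (1181) and neutrophils (3172), with exact 95% counting intervals; open triangles mark 0 UMIs, drawn at the level of 3 counts. Bcl11b, at 178 CPM in T cells, is at 0 in natural killer cells, and Gzma, at 189.7 CPM in T cells, reaches 3349 CPM in natural killer cells.

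Mature B cells, with at least 2 UMIs over Ighd and Fcer2a, at least 4 over Cd79a and Cd79b and no CD3 UMI, numbered 1181 at a median depth of 3017 UMIs. Of 10357 genes compared, 1039 were at least 2-fold higher in T cells (10.0%) and 2330 at least 2-fold lower (22.5%). The whole interval lay past 2-fold for 586 higher genes (5.66%) and 786 lower genes (7.59%), with a median log2 ratio of -0.29 over all genes. Trac and Bcl11b each had 0 UMIs in mature B cells, at least 503-fold and 369-fold higher in T cells. Ebf1, a B lineage factor, was lower in T cells (123-fold lower, 75.9 to 216). Recirculation genes were nearer: of 13, 5 were higher in T cells and 2, Bach2 and Foxp1, lower (median 0.56). Ccr7 was at 293 CPM in T cells and 269.9 CPM in mature B cells (1.09-fold, 0.954 to 1.23), and Il7r at 458 CPM in T cells and 311 CPM in mature B cells (1.47-fold, 1.33 to 1.63).

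Reporter sequences, counted in a second matrix, were read in T cells too. WPRE, an element that stabilises the reporter transcript, had 69 UMIs in 58 of 208 T cells (27.9%, 21.9% to 34.5%), against 29.1% of natural killer cells, 19.9% of mature B cells and 23.5% of neutrophils. T cells stood at 71.1 CPM of WPRE (55.4 to 90.0), natural killer cells at 63.3 CPM (43.0 to 89.9), mature B cells at 48.7 CPM (43.3 to 54.5) and neutrophils at 40.0 CPM (37.6 to 42.5). The interval of T cells lay above those of mature B cells and neutrophils and overlapped that of natural killer cells. The tdTomato sequence had 2 UMIs in T cells and EGFP had 0, which allows up to 3.09 CPM. The source of the WPRE reads in T cells was not tested.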

How the data were processed

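The data are 1 matrix of UMI counts per gene and cell barcode, deposited by the authors for all 4 records together, and a second matrix of counts for 98 added sequences. Per the file headers the counts come from Cell Ranger 3.1.0, and per the submitters' processing notes the build was mm10; the deposited counts were not normalized. The main matrix holds 31053 genes, 15014 barcodes and 90273806 UMIs, with 500 to 80413 per barcode. Gene coordinates come from GENCODE M21, which held 30934 of the gene IDs.

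For each class of cells the UMIs of a gene were added up and scaled to CPM; levels carry exact Poisson, shares exact binomial and ratios exact conditional intervals, all at 95%. Log2 ratios used 0.5 counts added per side, over genes with at least 20 UMIs on both sides together. A gene is called higher or lower past 2-fold, with no test. Genes at 0 on a side are given as bounds against 3 counts over the class. These bounds leave out counting error on the other side, and the exact interval reaches nearer to 1. Scrublet (scanpy 1.11.5) marked 6.34% of 12676 barcodes, and marked barcodes were left in except in an alternative. Scripts ran in Python 3.11.15 with numpy 2.4.6 and scipy 1.17.1. Only the ratios and their intervals were tested on simulated counts. These were independent Poisson draws, the model that the intervals assume, so UMIs gathered in single cells were not covered. The members and lists were chosen with earlier results of these data known. A gene can belong to several lists, and is then counted in each. Named genes are list members, the 20 highest and 10 lowest by log2 ratio against other kept cells (the highest among genes read in at least 10% of T cells), the 10 highest and 10 lowest of each other contrast by the interval bound nearest to 1, and the 10 most widely read variable genes. Genes named beside the classes with Trdc or Trac, and H2-Aa and S100a4 beside single cells, were chosen after their values were seen.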

Additional observations from a re-analysis of the deposited data

How the results depend on the processing

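A limit of 5% on mitochondrial UMIs left 17 T cells, or 0.312% of kept cells, with 11.8% Cd8a-only and WPRE in 47.1%. Genes past 2-fold, higher and lower, were then 4231 and 1111 against other kept cells, 40 and 16 between Cd8a-only and Cd4-only cells, 122 and 152 against natural killer cells and 556 and 1070 against mature B cells. The median log2 ratio of all genes against other kept cells was 1.11 at this limit, in place of 0.12. Between Cd8a-only and Cd4-only cells it was 0.46 in place of -0.12. A class drawn from 2 UMIs gave 16.3% Cd8a-only and 1.92% Cd4-only, and Cd8a with Cd8b1 gave 38.0% Cd8a-only. With at least 50 UMIs over both sides the counts were 43 and 68 between Cd8a-only and Cd4-only cells and 157 and 209 against natural killer cells. With at least 1 UMI they were 1346 and 2342 in the first of these contrasts and 1351 and 2014 in the second, and 2363 genes were higher than in mature B cells. At 3-fold the counts, in the same order of contrasts as first given, were 1325 and 1609, 61 and 77, 169 and 177 and 605 and 1316. With the whole interval past 2-fold, a rule chosen after seeing the data, they were 913 and 833, 17 and 33, 97 and 116 and 586 and 786. Log2 ratios changed sign for Bach2 against other kept cells at 5% mitochondrial UMIs (0.86), Mpo against natural killer cells at 1 CD3 UMI (0.23) and Ikzf2 between Cd8a-only and Cd4-only cells from 2 UMIs (0.66). The intervals of Bach2 (-0.44 to 1.76) and Ikzf2 (-0.84 to 3.22) spanned 0 there. The cause was not tested. S100a4, within 2-fold between Cd8a-only and Cd4-only cells, changed sign and passed the fold without the deepest Cd8a-only cell, which held most of its UMIs (-1.89). Of the gene ratios recomputed, 2955 moved by less than their counting interval, 290 moved further and 3 reversed from past 2-fold. Shares after thinning depend on the depth chosen: 12 of 18 at 500 or 2000 UMIs lay outside the interval at 1000 UMIs. Trac was read in 13.9% of T cells at 500 UMIs, 20.2% at 1000 and 33.3% at 2000, which left 201 T cells. No paired analysis was possible because the 4 records share 1 group and 1 library, and for the same reason no record could be left out. Cd4 and cytokine transcripts are limited by depth: 208 cells at a median of 4099.5 UMIs leave absence of a UMI uninformative in a single cell.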
